A study of Homo sapiens with 2 samples.

Results

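The subunits of RNA polymerases I, II and III were followed on the arrays as every gene probe whose name begins with POLR1, POLR2 or POLR3. The rule found 43 probes of 41000, which name 28 genes of 30484. Of these probes 40 passed the filter on dim signal (25673 in all did), and each of the 28 genes kept at least 1 probe, among 19215 genes. The 3 probes not kept were the dimmer probes of POLR1E, POLR2A and POLR3E. Cells were PC3, an established line from a metastasis of prostate cancer, transfected with 1 of 2 duplexes against SUB1 or with non-targeting (Non-T) siRNA, again after 24 h, and harvested 72 h after the first transfection. RNA from the SUB1 siRNA cells was labelled with Cy5 and RNA from the Non-T siRNA cells with Cy3, on 1 dual-colour array for each duplex (array 1 for siRNA 1 and array 2 for siRNA 2). Each value below is a log2 ratio, Cy5 over Cy3, unless it is called a signal. With 1 array per siRNA no ratio has a biological replicate, and since the dyes were not swapped, a preference of a probe for Cy5 or Cy3 cannot be told apart from the knockdown.

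RNA polymerase I makes the large ribosomal RNA precursor, RNA polymerase II makes messenger RNAs and RNA polymerase III makes transfer RNAs, 5S ribosomal RNA and other short RNAs. Each enzyme has a pair of large catalytic subunits of its own, further subunits of its own, and a set of small subunits common to all of them, and polymerases I and III also share a pair of assembly subunits. SUB1, also called PC4, is a coactivator of transcription by RNA polymerase II.

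The brightest probe for SUB1, the targeted gene, had ratios of -3.30 (siRNA 1) and -3.26 (siRNA 2), leaving 10.2% and 10.4% of the Non-T signal. Its other probes left 7.42% and 8.85%, 9.81% and 11.2%, and 28.6% and 33.8%. The median SD of the log2 ratio among the spots of the 209 probes spotted 10 times was 0.078 on array 1 and 0.074 on array 2, and serves here as the technical error of a single spot. It holds no spread between cultures. Of all gene spots, 54.3% on both arrays were well above background in Cy3, and no spot was saturated. Of the epithelial markers, all probes of KRT8, KRT18, KRT19, TACSTD1 (now EPCAM) and CDH1 were well above background in the Non-T cells, and none was for the leukocyte marker PTPRC. The probes of PECAM1 and COL1A1, which mark endothelial cells and fibroblasts, were also above background, and their part in these ratios was not tested. In whole-culture RNA, less RNA of a gene per cell and fewer of the cells that hold it cannot be told apart.

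No subunit gene was at least 2-fold lower or higher with either siRNA, that is 0 of 28 on each array. Over all 19215 genes, 0.817% passed that fold on array 1 (0.609% lower and 0.208% higher) and 1.68% on array 2 (1.07% lower and 0.614% higher), and 0.193% passed it in the same direction on both. The subunit ratios ran from -0.62 (POLR3G) to 0.28 (POLR2K) with siRNA 1 and from -0.67 (POLR2D) to 0.48 (POLR3D) with siRNA 2. Their median was -0.045 with siRNA 1 and -0.065 with siRNA 2, against 0.024 with both for all genes. With siRNA 1, 17 of 28 ratios were below 0, where 45.9% of all genes were, and with siRNA 2, 16 of 28 were, where 46.4% of all genes were. A ratio of 0.5 or more below 0 was found for 1 subunit gene with siRNA 1 and for 3 with siRNA 2, against 4.32% and 6.07% of all genes. By brightest probe no subunit gene was 0.5 or more above 0, though the other POLR2K probe had 0.56 with siRNA 2. In either direction, 8.2% and 11.4% of all genes were that far from 0. Both arrays compare with Non-T siRNA cells, so their ratios are not independent, and 12 of the 28 genes were below 0 on both arrays (30.3% of all genes), 7 above 0 on both (38.1%) and 9 on different sides (31.6%). No gene had opposite signs with both absolute ratios over 0.25, which 1.84% of all genes had. The mean ratio over both arrays was tested against 0 with limma, and with Benjamini-Hochberg adjustment over all 25673 probes, 0 of 40 subunit probes passed an adjusted p of 0.05 (0.0117% of all probes did, namely 3 probes of SUB1). At an unadjusted p under 0.05 there were 8 of 40 subunit probes, against 21.2% of all probes, and the smallest adjusted p of a subunit probe was 0.105, for POLR3G.

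**Figure D1:**
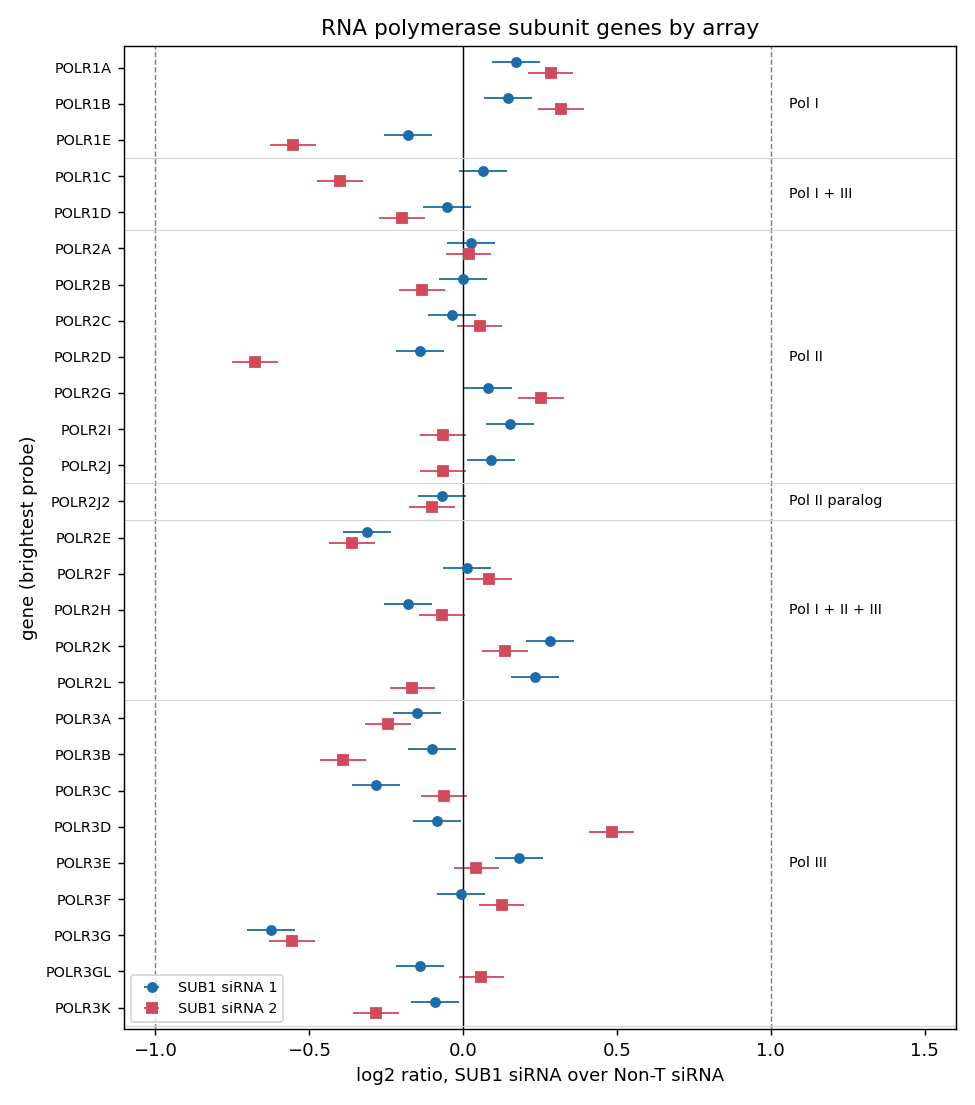
Log2 ratio to Non-T siRNA (horizontal axis) for the brightest probe of 27 subunit genes, grouped by polymerase; circles are siRNA 1 and squares siRNA 2, each from 1 array. Bars are 1 median spot SD (0.078 and 0.074), and the dashed lines at 2-fold are not reached by any of them.

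The plot of 27 genes shows the order of the ratios on each array. At the low end both symbols of POLR3G lie well apart from 0, as do those of POLR2E, whereas for POLR2D and POLR1E the siRNA 2 symbol lies much lower than the siRNA 1 symbol. At the high end POLR2K, POLR1B and POLR2G lie above 0 on both arrays. POLR1A is drawn there too, but its probe was not well above background in Cy3 on either array. Its siRNA 1 ratio was -0.030 in the authors' log2 ratios. By brightest probe or the mean of probes, 3 genes stayed below 0 on both arrays under all processing (POLR1E, POLR2E and POLR3G). Another 4 stayed above 0 on both (POLR1B, POLR2F, POLR2G and POLR2K). The share of all genes that kept their sign in this way was not counted. The dimmer POLR1B probe fell as low as -0.0034 with siRNA 1 and -0.073 with siRNA 2. The reported siRNA 1 ratio of POLR2F, 0.014, lay within the spot SD of 0.078.

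POLR3G, a subunit of the part of RNA polymerase III that acts in initiation, had the lowest mean ratio of all members. Its log2 signal in Non-T cells was 8.36 on array 1 and 8.26 on array 2, and its signal in SUB1 siRNA cells was 7.74 and 7.71. The SUB1 siRNA signals thus lay below both Non-T signals. The ratio was -0.62 with siRNA 1 and -0.56 with siRNA 2, which leaves 64.9% and 68.0% of the Non-T signal, and 2.54% and 4.83% of all genes had lower ratios. In limma the standard error of its mean ratio was 0.095 and the adjusted p 0.105. POLR3G (NM_006467) has 1 probe, at chr5:89817123-89817182 on the plus strand of hg18, the build named in the array files. POLR3GL, the paralog that can take the place of POLR3G in the enzyme and is found in most cell types, had ratios of -0.14 and 0.060. The ratio of POLR3G minus that of POLR3GL was -0.48 with siRNA 1 and -0.62 with siRNA 2, in size above the SD of 1 spot on each array. A difference of 2 spots varies more than 1 spot does, and this difference has no replicate.

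Of the 10 genes of RNA polymerase III alone, 9 were below 0 with siRNA 1 and 5 with siRNA 2. Of all genes 45.9% and 46.4% were, so the siRNA 2 count was near that share. The class median was -0.12 with siRNA 1 and -0.0087 with siRNA 2, against 0.024 for all genes on both arrays. The count with siRNA 1 depended on the processing. When median centring replaced loess, 3 of the 10 were below 0 (7 below the median of all genes). With processed signals 5 were below 0 (9 below the median of all genes), and in the authors' log2 ratios 7 were below 0. POLR3A, the largest subunit, had ratios of -0.15 and -0.24, and its dimmer probe had -0.36 and -0.46. POLR3B, the second large subunit, had -0.10 and -0.39, and its dimmer probe -0.065 and -0.32. Both large subunits were thus below 0 with all their probes on both arrays, although over the alternatives the siRNA 1 ratio reached 0.084 for the brightest POLR3A probe and 0.065 and 0.099 for the brighter and dimmer POLR3B probes. Their siRNA 2 ratios stayed below 0 under each alternative. POLR3A had log2 signals of 9.01 in Non-T and 8.86 in SUB1 siRNA cells on array 1, and 8.89 and 8.65 on the other. Among the subunits of the initiation subcomplex, POLR3C had ratios of -0.28 and -0.062, and POLR3F had -0.0075 and 0.13. POLR3E, which acts in initiation and termination, had 0.18 and 0.044, and was the member of this class above 0 with siRNA 1. POLR3K, which takes part in RNA cleavage and termination, had -0.090 and -0.28. CRCP, a subunit that carries the name RCP9 on the array and so lies outside the name rule, had -0.12 and -0.16, and with it 10 of 11 genes were below 0 with siRNA 1 and 6 of 11 with siRNA 2.

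POLR3D, partner of POLR3E, had ratios of opposite sign with the siRNAs in the reported processing. Its Non-T signal was 8.69 on both arrays, and the SUB1 siRNA signal was 8.60 on array 1 and 9.17 on array 2. The Non-T signals lay within the spot SD of each other and that with siRNA 2 stood above the rest. The ratio was -0.085 with siRNA 1 and 0.48 with siRNA 2, a difference of 0.57, and the second probe of POLR3D had -0.35 and 0.20, a difference of 0.55. Under median centring the brightest probe had 0.091 and 0.67, both above 0. The second probe stayed below 0 with siRNA 1 under each alternative. By brightest probe, 2 of 28 subunit genes, POLR3D and POLR2D, had ratios that differed by at least 0.5 between the siRNAs, where 9.36% of all genes did.

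**Figure D2:**
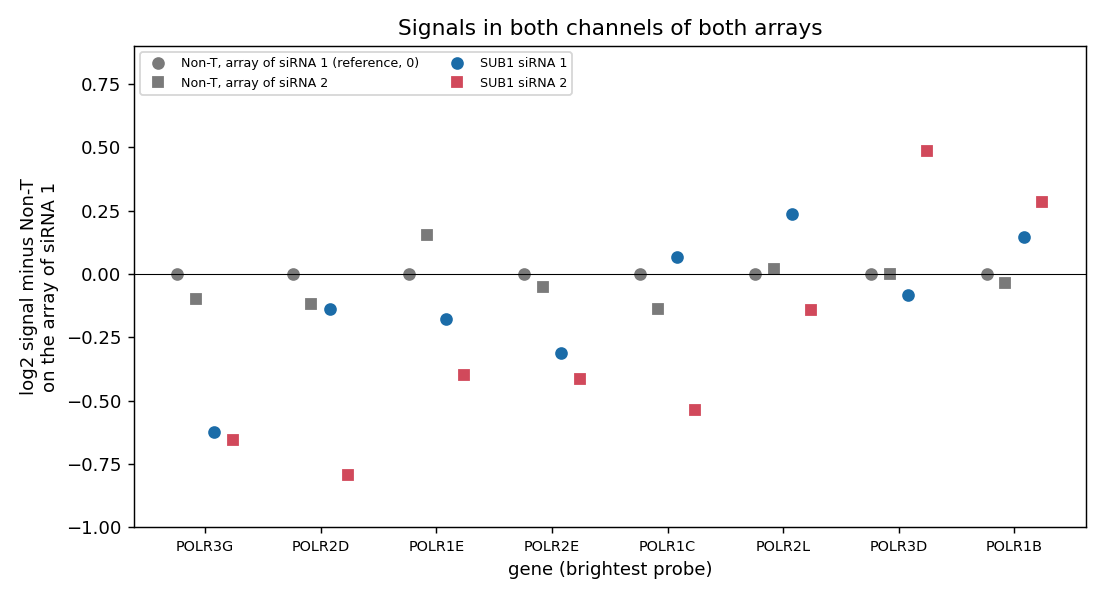
Log2 signal in each channel of each array for 8 subunit genes, drawn relative to the Non-T signal on array 1 (vertical axis, log2 units); grey symbols are Non-T siRNA cells and coloured symbols SUB1 siRNA cells, with circles for array 1 and squares for array 2. For POLR3D the Non-T symbols coincide (8.69 on both arrays) and the siRNA 2 symbol stands 0.48 above them, while for POLR3G both coloured symbols lie below both grey ones.

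The plot of channel signals separates genes by where the arrays differed. On array 2 minus array 1, the log2 signal in SUB1 siRNA cells was -0.65 for POLR2D, -0.60 for POLR1C and 0.57 for POLR3D, and that in Non-T cells was -0.12, -0.14 and 0.00042. For these genes the gap between the siRNAs thus lay mostly in the Cy5 channel. Whether 1 extract of Non-T RNA was used on both is not given in the sources used here.

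RNA polymerase II alone is represented by 7 genes, whose median ratio was 0.026 on array 1 (3 below 0) and -0.064 on the other (4 below 0). The shares of all genes below 0 were 45.9% and 46.4%. POLR2A, its largest subunit with the C-terminal repeat domain, was the one member with a probe spotted 10 times. Its log2 signal was 6.77 in Non-T and 6.79 in SUB1 siRNA cells on array 1, and 6.76 and 6.78 on array 2. The ratio was 0.026 on array 1 and 0.019 on array 2, with an SD among the spots of 0.095 and 0.12, in both cases within the spread among spots. POLR2B, the second large subunit, had -0.00051 and -0.13. POLR2C and POLR2J, partners in the assembly platform, had -0.036 and 0.054, and 0.091 and -0.065. POLR2I, involved in fidelity, had 0.15 and -0.064. The stalk is made of POLR2D and POLR2G, which had ratios on different sides of 0. POLR2G had 0.082 with siRNA 1 and 0.25 with siRNA 2. POLR2D (NM_004805, chr2:128321006-128321065 on the minus strand of hg18) had a Non-T signal of 9.37 and a SUB1 siRNA signal of 9.23 on array 1, and signals of 9.25 and 8.58 on array 2. Its ratio of -0.67 with siRNA 2 was the lowest of any member on that array, with 62.6% of the Non-T signal left, whereas that of -0.14 with siRNA 1 became 0.065 under median centring. The second, dimmer POLR2D probe had -0.19 and -0.27, so that the size of the siRNA 2 ratio differed by 0.40 between the probes. The 3 probes named POLR2J2, a near-identical paralog of POLR2J, had -0.069, 0.29 and -0.018 with siRNA 1 and -0.10, 0.30 and -0.081 with siRNA 2. Paralogs of this family can share probe targets, so these values are uncertain as to gene.

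For the 5 subunits common to all the enzymes the median ratio was 0.014 on array 1 (2 below 0) and -0.067 on the other (3 below 0). The shares of all genes below 0 were 45.9% and 46.4%. POLR2E (NM_002695) had log2 signals of 9.68 in Non-T and 9.37 in SUB1 siRNA cells on array 1, and 9.63 and 9.27 on the other. Both SUB1 siRNA signals lay below both Non-T signals, with ratios of -0.31 and -0.36. Its adjusted p in limma was 0.165. POLR2K lay on the other side. By its brightest probe its signals were 12.2 in Non-T and 12.5 in SUB1 siRNA cells on array 1, and 12.2 and 12.4 on the other. Its ratios were 0.28 and 0.14 by its brightest probe and 0.47 and 0.56 by its other probe. The adjusted p of that other probe was 0.116, the second smallest among the members. POLR2F had 0.014 and 0.085, and POLR2H had -0.18 and -0.067. POLR2L gave different signs by probe, since the brightest had 0.24 with siRNA 1 and -0.16 with siRNA 2 while its other probes had -0.14 and -0.17 with siRNA 1 and -0.36 and -0.42 with siRNA 2. The brightest POLR2L probe also had the highest Non-T signal of any member probe, 15.3 on both arrays.

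**Figure D3:**
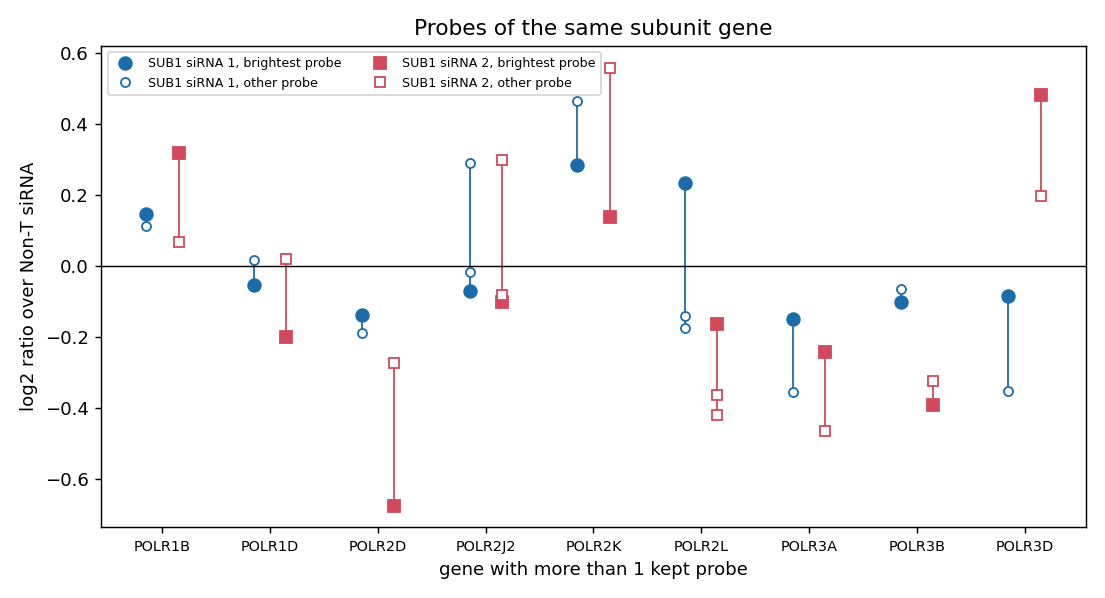
Log2 ratio over Non-T siRNA (vertical axis) of every kept probe of 9 subunit genes with more than 1, with filled symbols for the brightest probe and open symbols for the others; circles are siRNA 1 and squares siRNA 2, and a line joins the probes of a gene on an array. With siRNA 2 the probes of POLR2K are farthest apart, at 0.14 and 0.56.

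The plot of probes shows how far single ratios can be read. Probes of the same gene lay between 0.034 and 0.41 apart with siRNA 1 and between 0.068 and 0.42 with siRNA 2. The gap exceeded the spot SD for 5 of these 9 genes with siRNA 1 and for 8 of 9 with siRNA 2, so a difference of that size between genes rests on the probe chosen. Of the 43 member probes, 29 are placed in an unbroken interval of 60 bases and 14 span a longer one, up to 2811 bases.

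RNA polymerase I alone is represented by 3 genes under the name rule. POLR1B, its second large subunit, had Non-T signals of 8.52 and 8.48 and SUB1 siRNA signals of 8.67 and 8.80 on the siRNA 1 and siRNA 2 arrays. Its ratios were 0.15 and 0.32, and those of its dimmer probe, not well above background in Cy3 on array 1, were 0.11 and 0.067. POLR1A, the largest subunit, was not well above background in Cy3 on either array. Its measured log2 signals were 6.37 in Non-T and 6.54 in SUB1 siRNA cells on array 1 and 6.20 and 6.48 on array 2, with ratios of 0.17 and 0.29. The Non-T side is thus only a bound. It was set to the lowest signal well above background, or to the probe's own signal where that is higher. Against it, the SUB1 siRNA signal was 1.13-fold with siRNA 1, which is the measured ratio itself, and 1.05-fold with siRNA 2. Each value rests on 1 spot, whose error is not in it, so neither shows that POLR1A was higher. The siRNA 1 value also holds for this processing only, since the ratio was 0.083 without background correction, 0.018 with median spot signals and -0.030 in the authors' log2 ratios. With siRNA 2 these gave 0.20, 0.25 and 0.15. The adjusted p of POLR1A in limma was 0.270, but the Non-T side of the tested ratio is only a bound, so nothing is concluded from it. POLR1E (NM_022490, chr9:37491711-37491770 on the plus strand of hg18), which has roles in initiation and elongation, had Non-T signals of 6.94 and 7.09 and SUB1 siRNA signals of 6.76 and 6.54. Its ratios were -0.18 with siRNA 1 and -0.55 with siRNA 2, the third lowest mean ratio of the members, and its adjusted p was 0.214. The software's processed signals gave 1.27 for POLR1A and -1.30 for POLR1E with siRNA 2, both past 2-fold, and both probes are dim. The class median of 0.15 and 0.29 rested on both POLR1A and POLR1B, since POLR1E, the remaining gene, lay below 0. Without the dim POLR1A it was -0.015 and -0.12. With CD3EAP, TWISTNB and ZNRD1, subunits of RNA polymerase I that carry other names on the array, the median over 6 genes was 0.069 with siRNA 1 and 0.021 with siRNA 2. POLR1C and POLR1D, the pair shared with RNA polymerase III, had 0.066 and -0.053 with siRNA 1 and -0.40 and -0.20 with siRNA 2. The dimmer POLR1D probe was not well above background in Cy3 on either array. For POLR1C the signals were 9.97 in Non-T and 10.03 in SUB1 siRNA cells on array 1, and 9.83 and 9.43 on array 2.

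**Figure D4:**
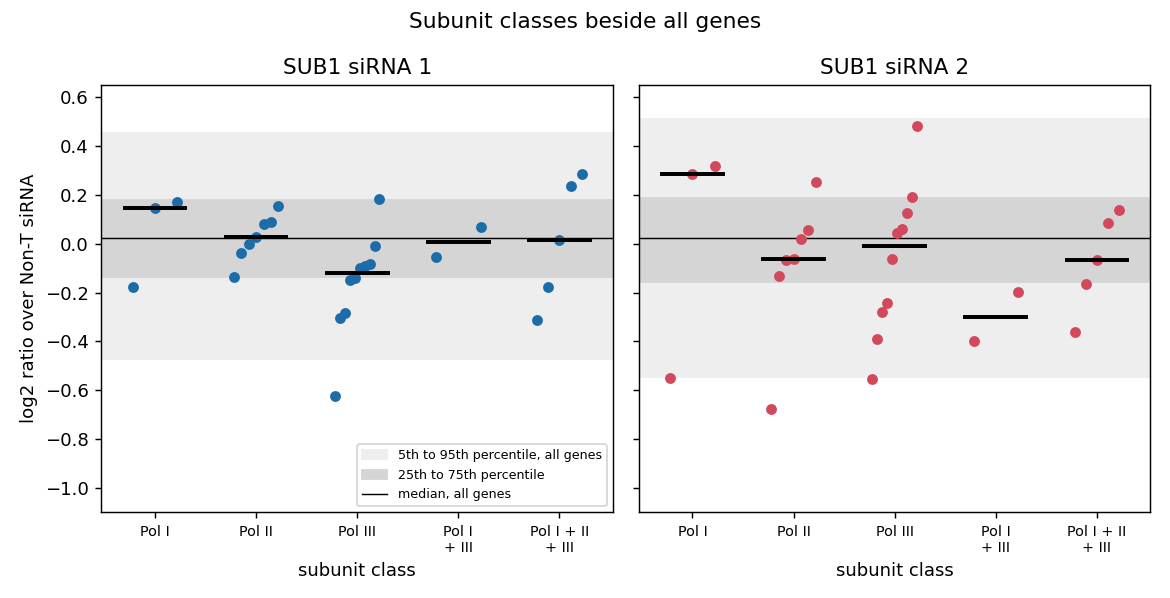
Log2 ratio over Non-T siRNA (vertical axis) of the subunit genes by class, left for siRNA 1 and right for siRNA 2; points are genes by their brightest probe, thick bars class medians, and grey bands the ranges over all 19215 genes. The class medians lie between -0.12 and 0.15 with siRNA 1 and between -0.30 and 0.29 with siRNA 2, and POLR2J2 is not drawn.

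The plot of classes sets these medians beside the spread of all genes. The value for polymerase I alone rests on POLR1B and on POLR1A, which passed the filter through Cy5 only. Its median minus the all-gene median was 0.12 (siRNA 1) and 0.26 (siRNA 2) with POLR1A and -0.039 and -0.14 without POLR1A. The same difference was 0.0014 and -0.088 for polymerase II alone, -0.14 and -0.033 for polymerase III alone, -0.017 and -0.32 for the pair shared by I and III, and -0.0097 and -0.091 for the subunits common to all. The quartiles of all genes were -0.14 and 0.18 with siRNA 1, and the 5 class medians lay between them. With siRNA 2 the quartiles were -0.16 and 0.19, and the median of the pair shared by I and III (-0.30) lay outside them, as did that of polymerase I alone with POLR1A (0.29) but not without it (-0.12). These quartiles are of single genes, so a class median inside or outside them does not show whether the class moved. A class of 2 to 10 genes by single probes gives no error for its median beyond the spread of its members, and no class was tested against another.

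Promoter sequences are shown for the 2 members with the lowest mean ratio, and the 1 with the highest, that have an entry in the RefSeq promoter table of GRCh38.p14. The table held 26 starts for 20 of the 28 genes. Each sequence is the 250 bases before the start, 5′ to 3′ on the strand of the gene, with matches to a motif in capitals. The motifs searched on both strands were the GC box GGGCGG, the CCAAT box CCAAT, the TATA box TATAAA and the E-box CACGTG, none of which contains another. POLR2D lies at chr2:127858156-127858405 (minus strand), POLR2E at chr19:1095376-1095625 (minus strand) and POLR1B, the first of 2 starts listed, at chr2:112541786-112542035 (plus strand).
POLR2D: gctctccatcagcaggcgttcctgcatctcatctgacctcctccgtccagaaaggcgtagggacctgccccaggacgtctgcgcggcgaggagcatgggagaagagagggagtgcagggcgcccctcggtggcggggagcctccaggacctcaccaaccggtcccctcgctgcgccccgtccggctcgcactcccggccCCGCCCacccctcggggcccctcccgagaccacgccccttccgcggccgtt
POLR2E: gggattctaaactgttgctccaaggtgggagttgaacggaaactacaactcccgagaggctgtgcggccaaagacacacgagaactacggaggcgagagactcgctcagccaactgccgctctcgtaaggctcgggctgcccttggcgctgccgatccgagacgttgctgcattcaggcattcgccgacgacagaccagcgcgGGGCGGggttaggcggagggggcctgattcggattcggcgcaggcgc
POLR1B: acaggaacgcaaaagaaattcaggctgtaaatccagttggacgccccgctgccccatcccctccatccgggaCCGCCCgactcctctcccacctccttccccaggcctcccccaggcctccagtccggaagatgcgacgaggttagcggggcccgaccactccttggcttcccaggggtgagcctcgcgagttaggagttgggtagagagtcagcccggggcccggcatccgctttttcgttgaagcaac
Each of these windows held 1 GC box and no other motif of the list. POLR2D and POLR2E had ratios below 0 and POLR1B ratios above 0. Over the 26 member starts, 20 windows held a GC box, against 42.6% of the 35116 windows in the table, 5 held a CCAAT box (32% of all), 0 held TATAAA (10.7%) and 2 held CACGTG (6.34%). These are matches of letters in a fixed window and were not tested.

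Other genes of the polymerase systems were taken as a list of 44, of which 42 had a kept probe. None was at least 2-fold lower or higher on either array (0.817% and 1.68% of all genes were), and none passed an adjusted p of 0.05 in limma. Their median was -0.043 with siRNA 1, with 23 of 42 below 0, and 0.0092 with siRNA 2, with 20 of 42 below 0. The shares of all genes below 0 were 45.9% and 46.4%. Among the 7 factors of RNA polymerase I initiation and termination the median was -0.095 and 0.017, and UBTF, which binds the ribosomal RNA gene promoter, had -0.095 and -0.096. TAF1A, of the same promoter complex as TAF1B, had -0.51 with siRNA 1 and 0.12 with siRNA 2. Among the 15 measured factors of RNA polymerase III initiation the median was -0.0051 and 0.060, with 8 and 6 below 0. BRF1 and BDP1, parts of the factor that places RNA polymerase III at its promoters, had 0.34 and 0.31, and 0.22 and 0.41. MAF1, the repressor of RNA polymerase III, had -0.45 and -0.19, and SNAPC1, which acts at small nuclear RNA genes, had -0.65 and -0.26. The initiation factors of RNA polymerase III thus lay on both sides of 0 on each array.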

How the data were processed

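Two-colour gene expression of PC3 cells was measured on 2 Agilent arrays of 1 slide (siRNA 1 and siRNA 2 in Cy5, Non-T siRNA in Cy3). The authors quantified the scans with Feature Extraction 9.5.1.1, and deposited for each spot the intensity and local background in both channels and the software's processed intensity. The authors' log2 ratios, made by loess on each array per the methods, are in a second table, an alternative here. Its direction was settled against the scanner values (Pearson correlation across probes 0.958 and 0.970). The scale is named only in the methods.

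In limma 3.58.1 (R 4.3.3), normexp with an offset of 50 took the median local background from mean spot intensities. Control spots then went, and loess of span 0.3 normalized each array. Flagged outliers (112 and 100 spots) were omitted and a probe's spots averaged. The filter kept probes with 0.5 or more of their spots well above background on each array, in either channel. The brightest kept probe stood for a gene. Channel signals were compared after Aquantile normalization.

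The fold rule, 2-fold (log2 ratio of 1) on each array, is that of the paper's methods. The mean ratio of both arrays was tested against 0 with lmFit and eBayes, adjusted by Benjamini-Hochberg over all kept probes. The control's own spread is not in that test. The scripts were tested on simulated data. Precision is limited by the number of arrays, by dim signals and by differences between probes of a gene. Members, classes and lists were chosen with earlier results of these data known. Of the 28 genes, 27 are named with both ratios and 1 is not reported here by name, though class counts hold it, and signals are added for POLR1A, POLR2A, POLR3A, the 3 lowest and 3 highest mean ratios, and the genes with the largest probe or siRNA differences. Further signals and examples were chosen after their values were seen. Alternatives were background correction, spot summary, centring, processed signals, the authors' ratios, filters, outliers, probe choice and the prior variance.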

Additional observations from a re-analysis of the deposited data

How the results depend on the processing

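No alternative gave a subunit gene past 2-fold with siRNA 1. With siRNA 2, processed signals gave 2 (POLR1A and POLR1E) and the other alternatives 0. Of 502 gene ratios under an alternative, 367 moved by less than the median spot SD, 135 moved further and 52 changed sign. This pooled count overstates stability, since a changed filter leaves the ratio of a probe as it is. Unmoved were 56 of 56 without the dim filter, 54 of 54 with both channels above background and 56 of 56 with outliers kept. Median centring moved 50 of 56, processed signals 44 of 56 and the authors' ratios 23 of 56. Of 92 class medians 70 moved less, 22 moved further and 20 changed sign. Median centring raised the median of all genes to 0.13 and 0.12, and processed signals raised it to 0.14 and 0.17 (siRNA 1 and siRNA 2).

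For polymerase I alone, the class median minus the all-gene median with siRNA 1 was -0.039 without POLR1A (added after seeing the data), -0.0075 with median spot signals, 0.0043 under median centring, 0.020 for processed signals, -0.057 for the authors' ratios and -0.026 with both channels above background. With siRNA 2 it was -0.14 without POLR1A, 0.17 without background correction, 0.11 with median centring, 0.12 with the authors' ratios, -0.12 with both channels above background and 0.17 with the mean of all probes. With median centring, polymerase II alone was 0.090 and 0.068, polymerase III alone -0.049 and 0.041, the pair shared by I and III 0.10 and -0.20, and the subunits common to all 0.23 and 0.18. The last were -0.20 with processed signals (siRNA 2), and 0.10 and 0.0050 with the authors' ratios. With the authors' ratios, polymerase III alone was -0.072 and -0.091. That class was -0.20 and -0.11 with the mean of all probes, and -0.11 and -0.094 with median spot signals. The cause was not tested.

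Over all probes, limma called 1 gene by brightest probe, 0 probes with processed signals, 0 with the authors' ratios and 452 of 40999 without a filter on dim probes. None was a member under any of these settings, and the smallest adjusted p of a member ranged from 0.053 without that filter to 0.168 with the authors' ratios. At an unadjusted p under 0.05 there were 7 of 40 member probes with processed signals (23% of all probes), 8 of 40 with the authors' ratios (21.6%), 12 of 40 under median centring (28.5%), 12 of 43 without the filter (17.8%) and 3 of 28 genes by brightest probe (20.8% of all genes). No paired analysis was possible because with 1 array per siRNA there is no second replicate number to serve as a block, beyond the pairing of Cy5 with Cy3 that each ratio already holds. With 1 of 2 arrays left out the test has no residual degrees of freedom, and a slide block could not be run on 1 slide.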

Other observations

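Among the genes that assemble RNA polymerase II or act on its C-terminal domain, 11 of 12 were measured. Their median ratio was -0.078 on array 1 and -0.017 on the other, with 6 of 11 below 0 on each (45.9% and 46.4% of all genes). GPN1 and GPN3, GTPases of RNA polymerase II assembly that carry the names XAB1 and ATPBD1C on the array, had -0.55 and -0.29, and -0.32 and -0.60. CTDSP2, a phosphatase of the C-terminal domain, had -0.89 with siRNA 1 and -0.19 with siRNA 2, while its relative CTDSP1 had 0.46 and 0.31. RPRD1B, which binds that domain and is named C20orf77 on the array, had 0.58 and 0.50. None of them reached 2-fold. POLRMT, the RNA polymerase of mitochondria, had -0.21 and -0.19, and its partners TFAM and TFB1M had 0.21 and 0.31, and -0.22 and -0.36. These examples were chosen after their values were seen.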
